A study of Mus musculus with 12 samples.

Results

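In wild-type mouse footpad skin, 301 probes of the authors' table of 25030 spots were higher at E16.5 than at E15.5, were near level from E16.5 to E17.5, and had similar mean values in the knockout. They were chosen on the authors' log10 values: a rise of the wild-type mean of at least 0.4 (2.51-fold) from E15.5 to E16.5, a later change of less than 2-fold either way, a knockout minus wild-type difference, averaged over the stages, of less than 1.5-fold, and no overlap between the 2 wild-type values of E15.5 and those of E16.5. The thresholds left 435 spots after the first condition, 346 after the second and 301 after the third, and the last removed none. The 301 spots carried 301 different probes.

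RNA came from the footpad skin of C57BL/6 embryos that were wild type or lacked beta-catenin in skin, at embryonic days E15.5, E16.5 and E17.5. Each of the 6 groups had 2 arrays, which gives 12 arrays with 2 colours. Footpad RNA carried the dye Cy3 on every array. The Cy5 channel held one common reference, a pool of RNA from cultured cell lines with embryonic stem cell RNA added. The promoter that drove the deletion and the allele deleted are not given in the sources used here. Whether the 2 arrays of a group hold RNA of different animals is not in the labels, and the p-values then cover only the spread between these arrays, which may be technical. The arrays of each stage shared a slide, and a change between stages cannot be told apart from one between slides. The knockout always held the first positions of a slide and wild type the later ones, so genotype and position cannot be told apart either.

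Footpads are the hairless pads of the mouse paw, where eccrine sweat glands grow from the basal epidermis late in gestation. Beta-catenin carries the canonical Wnt signal into the nucleus, and it also joins cadherins at cell contacts. Over the same days the epidermis builds its upper layers, and the dermis and the tissues under it mature. The array files name each probe by a code and not by a gene, so the targeted gene, markers of cell types and gene lists were not analysed here, and the tissue label was not checked against markers.

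The probes that follow carry the results described below. They are printed in lower case as the array files give them, 5′ to 3′. The first 3 had the largest knockout rises to E16.5, the next was also among the largest and was the highest above wild type at E16.5, the fifth was the highest above wild type at E17.5, and the last had the lowest knockout change.
Z00056378-1: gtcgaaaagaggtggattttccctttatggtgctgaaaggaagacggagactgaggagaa
Z00016217-1: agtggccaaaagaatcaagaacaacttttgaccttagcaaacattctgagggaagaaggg
Z00040305-1: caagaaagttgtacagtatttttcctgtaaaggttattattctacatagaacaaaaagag
Z00026134-1: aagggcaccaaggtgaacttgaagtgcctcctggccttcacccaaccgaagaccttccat
Z00037212-1: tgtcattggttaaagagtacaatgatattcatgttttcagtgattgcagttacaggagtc
Z00031900-1: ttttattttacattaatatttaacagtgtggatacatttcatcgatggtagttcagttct

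Some members share a run of at least 20 bases with another probe of the array. There were 8 such partners, and none was itself a member. In the 3 pairs shown, none of the partners was in the authors' table, so the choice of members did not use their spots. Capitals mark the shared run, which is 55 bases in the first pair, 26 in the second and 29 in the third.
Z00025777-1: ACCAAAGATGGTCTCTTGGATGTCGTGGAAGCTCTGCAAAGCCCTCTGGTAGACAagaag
Z00074797-1: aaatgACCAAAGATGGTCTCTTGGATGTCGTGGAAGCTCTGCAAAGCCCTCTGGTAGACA
Z00027205-1: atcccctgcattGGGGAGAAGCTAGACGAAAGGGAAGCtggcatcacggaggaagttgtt
Z00060656-1: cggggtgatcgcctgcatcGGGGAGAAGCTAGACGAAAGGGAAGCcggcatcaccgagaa
Z00060369-1: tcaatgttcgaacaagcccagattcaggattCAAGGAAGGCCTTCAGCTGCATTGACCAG
Z00036214-1: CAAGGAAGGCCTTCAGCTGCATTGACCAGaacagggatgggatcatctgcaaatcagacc

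In the authors' table, the wild-type rise of the members ran from 0.4002 to 0.975 log10 units with a median of 0.458, a fold of 2.51 to 9.44 with a median of 2.87. From E16.5 to E17.5 wild type changed by -0.291 to 0.288 log10 units, with a median of -0.037. These values chose the members and are a description. The members just inside the first threshold were Z00001014-1 at 0.4002 and Z00031569-1 at 0.40065, and the spots just outside it were Z00056937-1 at 0.39985 and Z00030892-1 at 0.3994.

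The knockout values of the same table followed the same course. The limit on the mean genotype difference used these values, so this likeness was partly set by the choice of members and is a description. From E15.5 to E16.5 the knockout mean was higher for 299 of 301 members, with a median change of 0.538 log10 units, a fold of 3.45. From E16.5 to E17.5 the median knockout change was -0.023 log10 units, and 279 of 301 members changed by less than 2-fold. The matching shares over all spots of the table were not counted. With each member set to its own mean over the 12 arrays and the values turned to log2, the array medians at E15.5 were -1.14 and -1.24 in knockout and -0.83 and -1.14 in wild type. At E16.5 they were 0.66 and 0.57 in knockout and 0.61 and 0.52 in wild type, and at E17.5 they were 0.55 and 0.60 in knockout and 0.54 and 0.38 in wild type. The 4 arrays of E15.5 were the low ones in both genotypes, and wild-type replicate 1 was the least low of them.

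The spot intensities gave a smaller change when they were corrected and normalized anew, as log2 of footpad over reference (normexp correction with an offset of 50, then loess within each array). On that scale the wild-type rise had a median of 0.43, and 68 of 301 members at least doubled. The knockout rise had a median of 0.40 over all 301 members, from -0.67 to 2.27, and 79 at least doubled. These medians take in members that were below background at E15.5. It was above 0 for 273 of 301.

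The knockout step from E15.5 to E16.5 was not itself a threshold of the choice of members. The genotype difference averaged over the stages was one, and it used the same knockout arrays, so the counts of this step are not independent of the choice. The step was tested with limma over all 30367 probes that were well above background in Cy3 on at least 2 arrays. Of the 301 members, 290 passed that filter. It could be passed at any stage, and 141 of the 301 were dim on all 4 arrays of E15.5. Most of those passed it on later arrays alone, where they were higher, and the probes set beside them were not matched for this. In the knockout 194 of these 290 were higher at E16.5 at an adjusted p under 0.05, against 25.5% of all probes tested, and 3 were lower, against 30.3%. Without the filter, 194 of all 301 were higher, against 18.2% of probes, and 3 were lower, against 22.7%. Both knockout arrays of E16.5 lay above both of E15.5 for 238 of 290 members, 1 of which lacked a value on a knockout array, against 36.2% of probes. On the authors' values 266 of 290 were called higher, against 31.5% of probes. Those values chose the members, so that count was partly set by the choice and is a description. The median knockout change over the 290 was 0.43, and the same over all probes tested was -0.02. The margin over the other probes was smaller with median centring in place of loess. On that scale 146 of 290 members (50.3%) were called higher by limma, against 42.1% of all probes, and 5 were lower, beside 5311 of all 30367 probes. The median of the members was then 0.27 and that of all probes 0.16.

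Members were split into 3 parts of near equal number by mean Cy3 level, a split chosen after the values were seen. In the brightest 101 the median rise was 2.15-fold in wild type and 2.23-fold in knockout, and 98 of 101 were called higher in knockout. Of these 101 members, 100 were well above background on both E15.5 arrays in wild type and 94 in knockout. In the middle 99, 58 were called, and 14 and 6 were above background in this way. In the dimmest 101, of which 90 were tested, 38 were called and none was above background on both E15.5 arrays of a genotype, so no fold is set beside that of the brightest. With median centring the dimmest members had a median knockout change of -0.11 log2 units and 1 was called higher, while all 101 of the brightest were called higher. Over all probes tested, 25.5% were called higher in the main fit and 42.1% with median centring. The share among all probes of like brightness was not counted, so these counts do not set the members apart from other probes of their brightness. In the authors' table the wild-type rise, which chose the members, had median folds of 2.74 in the brightest, 3.05 in the middle and 2.79 in the dimmest.

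Most members were near the limit of detection at E15.5. Between 108 and 156 of 301 were well above background in Cy3 on an E15.5 array, between 274 and 286 on an E16.5 array and between 219 and 261 on an E17.5 array. Over all probe spots these shares were 59 to 65.3%, 69.1 to 72.3% and 63.0 to 67.9%. In wild type at E15.5, 114 members were above background on both arrays, 42 on 1 and 145 on neither, and in knockout 100 were on both, 18 on 1 and 183 on neither. Only 98 members were above background on all 12 arrays.

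Agilent's software had put a surrogate in place of a Cy3 signal too low to use for 79 and 86 members on the knockout E15.5 arrays and for 19 and 81 on the wild-type ones. As shares these were 26.2, 28.6, 6.31 and 26.9% of members, against 23.1, 21.7, 18.8 and 22.3% of all spots of the authors' table. It had done so for none on the 4 arrays of E16.5 and for 1 to 4 on those of E17.5, where the shares over the table were 12.8 to 15.1% and 16.8 to 20.9%. The part of these surrogates in the size of the rise was not tested. For a member below background on both E15.5 arrays of a genotype, the fold is a lower bound, set from the dimmest probes well above background on those arrays. In wild type 130 members were dim at E15.5 and seen at E16.5. Bounds below 1 were left out, and so were bounds above the fold of the member's own log ratio. The 99 that were kept had a median of at least 1.09-fold, and the highest was at least 1.43-fold, for Z00032424-1. In knockout these numbers were 172 and 99, with a median of at least 1.16-fold and the highest, at least 1.94-fold, for Z00076597-1.

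At the median of the members, the change lay in the footpad channel. The normalized Cy3 level of members rose by a median of 0.37 log2 units in both genotypes from E15.5 to E16.5, while the median change of the Cy5 reference was 0.00 on the knockout arrays and -0.04 on the wild-type arrays. Single members differed from this, since the Cy5 change ran from -0.83 to 0.50 on the knockout arrays and from -0.74 to 0.33 on the wild-type arrays. The reference itself was well above background on all 12 arrays for 210 members and on none for 30.

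Z00056378-1 had the largest knockout rise to E16.5. Its log2 ratios in knockout were 0.64 and 0.15 at E15.5, 2.79 and 2.53 at E16.5 and 4.20 and 4.37 at E17.5, and in wild type they were 1.66 and 1.32, then 3.37 and 3.17, then 4.20 and 4.17. Knockout lay below wild type without overlap at the first 2 stages, and the genotypes met at E17.5. The knockout step to E16.5 was 2.27 ± 0.17 (SE, n = 2 arrays a stage, limma adjusted p = 2.05e-06), a 4.82-fold rise. The step to E17.5 was 1.63 ± 0.17 (limma adjusted p = 0.000106), so this member did not level off in knockout, and wild type rose by a further 0.92.

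Z00016217-1 and Z00040305-1 ran a like course. Z00016217-1 read 1.13 and 0.71 in knockout at E15.5, 3.17 and 2.91 at E16.5 and 3.76 and 3.95 at E17.5, against 2.07 and 1.51, 3.54 and 3.41, and 3.91 and 3.85 in wild type. Knockout was the lower genotype at the first 2 stages, and the values overlapped at E17.5. Its knockout steps were 2.12 ± 0.18 (limma adjusted p = 5.6e-06) and 0.81 ± 0.18 (limma adjusted p = 0.00938, SE, n = 2 arrays a stage). The second step was not called with Agilent's signals, with the authors' values, without the second knockout array of E16.5 or without that of E17.5 (limma adjusted p up to 0.0896).

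Z00040305-1 read 1.38 and 1.18 in knockout at E15.5, 3.16 and 3.17 at E16.5 and 3.83 and 3.82 at E17.5, against 2.25 and 2.20, 3.80 and 3.57, and 3.89 and 4.0 in wild type. Every knockout value was below both wild-type values of its stage, with mean differences of -0.95, -0.52 and -0.12 in stage order. Its knockout steps were 1.88 ± 0.10 (limma adjusted p = 2.7e-07) and 0.66 ± 0.10 (limma adjusted p = 0.00111, SE, n = 2 arrays a stage).

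The other members with the 8 largest knockout steps were Z00009041-1 and Z00026134-1 at 1.87, Z00060713-1 at 1.86, Z00054946-1 at 1.82 and Z00006968-1 at 1.80, with limma adjusted p from 6.28e-07 to 6.95e-05. These 8 were well above background on all 12 arrays. Z00054946-1 had no value on the second wild-type array of E17.5, where its spot was an outlier.

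The 3 members called lower in knockout were Z00031900-1 at -0.67, Z00025028-1 at -0.46 and Z00076114-1 at -0.40, with limma adjusted p of 0.00298, 0.00759 and 0.0132. Z00031900-1 read -3.38 and -3.11 in knockout at E15.5 and -3.86 and -3.97 at E16.5, against -4.04 and -3.58, then -3.61 and -3.78 in wild type. The knockout values did not overlap between the stages and the wild-type ones did. All 3 were below background on all 4 arrays of E15.5, so no fold is given, and on the authors' values their knockout step was upward, at 1.64, 1.95 and 1.17 log2 units. Z00025028-1 was also upward with median centring, at 0.08, and with Cy3 alone, at 0.30, and Z00031900-1 was upward with Cy3 alone, at 0.17. None of the 3 was called lower with median centring. Without the second knockout array of E15.5 neither Z00025028-1 nor Z00076114-1 was called, and Z00076114-1 was also lost without either knockout array of E16.5. Z00025028-1 was lost with an offset of 16 as well.

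The step from E16.5 to E17.5 was level in knockout at the median, 0.00, with a range from -0.68 to 1.63. At an adjusted p under 0.05 in limma, 45 of 290 members were higher, beside 4707 of all 30367 probes, and 21 were lower, which is 7.24% against 8.07% of all probes. These shares are near the background. Both knockout arrays of E17.5 lay above both of E16.5 for 96 members (39.6% of all probes did) and below them for 80 (31.8%). The counts of this step depended on single arrays. The 45 became 25 without the first knockout array of E16.5, 19 without the second, and 16 without the second knockout array of E17.5. The 21 became 5 and 7 without the knockout arrays of E16.5, and 5 and 9 without those of E17.5.

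A few members kept rising. Z00039272-1, chosen after its values were seen, read -0.61 and -0.32 in knockout at E15.5, 1.32 and 1.20 at E16.5 and 2.64 and 2.88 at E17.5. Its stages did not overlap, and the steps were 1.72 ± 0.12 (limma adjusted p = 1.71e-06) and 1.51 ± 0.12 (limma adjusted p = 2.66e-05, SE, n = 2 arrays a stage). Wild type rose by 1.81 and then by 0.95. Z00051116-1, chosen in the same way, rose by 0.88 and then by 1.24 in knockout (limma adjusted p = 0.000639 and 0.000325). Its second step was not called with Agilent's signals (limma adjusted p = 0.13).

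Z00073950-1 and Z00066938-1, also chosen after their values were seen, rose late on the normexp and loess ratios. Their first knockout steps were -0.10 and 0.05 (limma adjusted p = 0.349 and 0.676) and their second steps 0.65 and 0.60 (limma adjusted p = 0.000643 and 0.00153). The second step of Z00066938-1 was not called with median centring or Agilent's signals (limma adjusted p up to 0.0734). On the authors' log10 values Z00066938-1 rose at both knockout steps, from 1.1144 and 1.3085 to 1.64 and 1.3649, then to 2.1025 and 2.0151. Others turned back. Z00024062-1 and Z00047906-1, again chosen afterwards, rose by 1.16 and 0.94 in knockout and then fell by 0.68 and 0.63 on the log2 scale (limma adjusted p of the falls = 0.00619 and 0.00801). Neither fall was called without the first knockout array of E16.5. That of Z00024062-1 was also lost with Agilent's signals and the authors' values (limma adjusted p up to 0.16), and that of Z00047906-1 without the first knockout array of E17.5 (limma adjusted p up to 0.0568).

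The difference between genotypes at each stage was part of the choice of members and is a description. On the authors' log10 values knockout minus wild type had medians of -0.052, 0.009 and 0.030 in stage order. It was above 0 for 105, 158 and 190 of 301 members. On the normexp and loess log2 ratios the median was 0.02 at E15.5, from -1.10 to 0.56, and 0.02 at E16.5, from -0.61 to 0.66. At E17.5 it was 0.04, from -0.48 to 1.42. In limma 2 of the 290 were called higher and 8 lower at E15.5, where 3% and 2.92% of all probes were. At E16.5 the counts were 2 and 1 (0.451% and 1.47%), and at E17.5 they were 4 and 0 (0.8% and 0.589%). The change to E16.5 in knockout minus that in wild type had a median of -0.00, and 289 of 301 members lay within 0.5 of equal change. That limit is wider than the median rises, 0.43 in wild type and 0.40 in knockout. Across the 301 members the changes in the genotypes had Pearson's r of 0.911 and Spearman's rho of 0.878. The wild-type change and the genotype difference both chose the members, so this agreement was partly set by the choice. The same values over all probes were not computed. The members are not independent replicates, and the arrays of both genotypes at a stage shared a slide.

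Z00037212-1 stood highest above wild type at E17.5. It read 0.63 and 0.65 in knockout at E15.5, 2.13 and 2.07 at E16.5 and 3.42 and 3.65 at E17.5, against 0.85 and 0.58, 1.68 and 1.70, and 2.25 and 2.00 in wild type. The genotypes overlapped at E15.5 and knockout was the higher one at both later stages, by 0.41 and 1.42. Its knockout steps were 1.46 ± 0.12 and 1.44 ± 0.12 (SE, n = 2 arrays a stage, limma adjusted p = 3.68e-06 and 2.67e-05). The second was not called with Agilent's signals (limma adjusted p = 0.161). The size of the first step depended on the processing and ran from 0.66 to 3.80 log2 units across settings.

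Z00022728-1 read 0.59 and 0.56 in knockout at E15.5, 1.85 and 1.58 at E16.5 and 2.68 and 2.60 at E17.5, against 0.58 and 0.58, 1.62 and 1.39, and 1.81 and 1.65 in wild type. Knockout was 0.92 higher at E17.5, without overlap. Its knockout steps were 1.14 and 0.93 (limma adjusted p = 1.34e-05 and 0.000282). The authors' table differed. There its log10 values at E17.5 overlapped, at 2.5516 and 2.5896 in knockout and 2.5925 and 2.5118 in wild type, and at E16.5 knockout was the lower one, at 2.5289 and 2.3991 against 2.5400 and 2.6508. The first step was not called with Agilent's signals (0.46, limma adjusted p = 0.141), and the second was not called with those signals or the authors' values (0.35 at the lowest, limma adjusted p up to 0.341).

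Z00026134-1 was higher in knockout at E16.5, at 3.98 and 3.69 against 3.12 and 3.24, and at E17.5, at 4.08 and 4.02 against 3.33 and 3.30. At E15.5 its values overlapped, at 2.19 and 1.75 in knockout and 2.00 and 1.41 in wild type. The authors' log10 values did not overlap at E15.5. There knockout was already the higher one, at 3.0372 and 2.9327 against 2.8648 and 2.7314. Z00022866-1 was the lowest against wild type at E17.5, at -0.39 and -0.47 in knockout and 0.16 and -0.06 in wild type, a difference of -0.48. In knockout it had risen by 0.73 to E16.5 and then fell by 0.57 (limma adjusted p = 0.000798 and 0.0108). The fall was not called without the first knockout array of E16.5 or the second of E17.5 (limma adjusted p up to 0.103).

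The 8 partner probes gave readings from other spots of the same arrays, and the 3 pairs printed above, chosen after their values were seen, are not all of them. Z00027205-1 changed by 1.24 in wild type and 1.51 in knockout to E16.5, and its partner Z00060656-1 by 1.22 and 1.51. Z00060369-1 changed by 1.00 and 0.62, and its partner Z00036214-1 by 1.04 and 0.57. Z00025777-1 changed by 1.07 and 1.21, and its partner Z00074797-1 by 0.64 and 0.69, so this pair moved in the same direction by unequal amounts. The other pairs ranged from close to further apart. Z00031006-1 changed by 0.54 in wild type and 0.33 in knockout, and its partner Z00077611-1 by 0.65 and 1.11. Z00057062-1 changed by 0.44 and -0.15, and its partner Z00028918-1 by -0.09 and -0.07. Z00040350-1 changed by 0.21 and -0.08, and its partner Z00056849-1, which shares 43 bases, by -0.01 and -0.04. The partners in these last 2 pairs were well above background on none of the 12 arrays. Z00044824-1 changed by 0.54 and 0.13 against 0.44 and 0.24 for Z00030645-1. Z00073950-1 changed by 0.09 and -0.10 against 0.14 and -0.06 for Z00075833-1.

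The sequences of the members had a median GC content of 41.7%, against 43.3% over the probes of the authors' table. The hexamer AATAAA, searched on the printed strand, stood in 15 of 301 members (4.98%) and in 7.90% of the table, and its reverse complement TTTATT in 13 (4.32%) and in 3.62%. Only 2 member probes were found whole in the 32851 promoter windows of RefSeq (GRCm38.p6, 250 bases before to 50 after a start), and none in a miRNA hairpin. Z00064043-1 matched chr19:6057909-6057968, which lies around the start of Fau, a ribosomal protein fusion gene, on the same strand, and also in the window of Mrpl49 on the opposite strand. Its bases are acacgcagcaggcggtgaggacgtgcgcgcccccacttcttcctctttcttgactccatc. It read -1.97 and -1.98 in knockout at E15.5, -1.15 and -1.14 at E16.5 and -1.17 and -0.51 at E17.5, and its first knockout step was 0.83 ± 0.18 (SE, n = 2 arrays a stage, limma adjusted p = 0.0023). Z00024971-1 matched chr15:10978653-10978712, in the window of Gm52174 on the opposite strand, and its first knockout step was 1.52 ± 0.18 (SE, n = 2 arrays a stage, limma adjusted p = 4.56e-05). That step was not called with Agilent's signals or the authors' values, where it was 0.56 at the lowest (limma adjusted p up to 0.222).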

How the data were processed

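The authors deposited spot intensity values read with Agilent Feature Extraction 9.5.1.1, per the file headers, and a table of processed log10 values whose making was not given in the sources used here. Its columns had medians from 2.556 to 2.588. Each column minus the first knockout column of E15.5 correlated between 0.973 and 0.991 across spots with the same difference in footpad over reference. This gives its direction but not its scale, and its centring is unknown. Members and lists were chosen with earlier results of these data known.

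Each array held 43451 spots, 1417 of them controls, and 42006 probes. Intensities were corrected with normexp (offset 50, median local background) in limma 3.58.1 (R 4.3.3), normalized by loess with controls at weight 0, cleared of outlier spots, expressed as log2 footpad over reference, then averaged per probe. The fit took 6 group means over 12 arrays, with Benjamini-Hochberg adjustment; 11638 dim probes and 1 with outliers were left out. Replicates correlated between 0.975 and 0.995. The number of arrays limits the precision.

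Same-numbered knockout and wild-type arrays deviated together (r of 0.609 at E15.5, 0.247 a day later and 0.161 at E17.5), so the numbers were taken to pair them. The fit was tested on simulated data. Members named are the 8 highest and 8 lowest knockout steps to E16.5, the 3 highest and 3 lowest genotype differences a stage, those at the threshold, the 4 highest wild-type levels at E16.5, and 12 chosen after their values were seen. No table pairing probes with genes was used; 2 probes matched promoter windows.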

Additional observations from a re-analysis of the deposited data

Results flagged for a closer look

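On the normexp and loess ratios, 2 of the members named here had genotypes that moved in opposite directions from E15.5 to E16.5 on every array. This difference was not tested, the other members were not searched for it, and its share over all probes was not counted. Z00038211-1 changed by -0.21 in knockout, from -0.68 and -0.67 to -0.92 and -0.86, and by 0.18 in wild type, from -1.02 and -0.91 to -0.78 and -0.80. Z00040350-1, chosen after its values were seen, changed by -0.081 in knockout, from 0.06 and 0.06 to -0.01 and -0.03, and by 0.21 in wild type, from -0.10 and -0.08 to 0.15 and 0.09. Z00038211-1 was well above background in Cy3 on 2 of 12 arrays and Z00040350-1 on 1. With Agilent's signals and the authors' values the knockout change of Z00038211-1 was upward, at 0.54 and 0.49, and on the authors' values the wild-type change was upward too. The probe that shares 43 bases with Z00040350-1 changed by -0.006 in wild type, and it was well above background on no array.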

How the results depend on the processing

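The count of 194 members called higher in knockout at E16.5 ranged from 156, without the first knockout array of E16.5, to 196 when 1 array was left out, and the 3 called lower ranged from 2 to 4. With median centring 5 were called lower, 0 of them among the 3, and the count was 0 with Agilent's processed signals, the authors' values or Cy3 alone, where limma called 264, 266 and 210 higher. The median rise of 0.43 was 0.27 with median centring, under which the median over all probes was 0.16, and 1.87 with Agilent's signals, 1.81 with the authors' values and 0.75 with an offset of 16; it was 0.39 to 0.45 with 1 array left out. From E16.5 to E17.5 the 45 called higher became 24 with median centring, 17 with Agilent's signals and 20 with the authors' values, and 16 to 54 with 1 array left out. The 21 called lower became 11, 6 and, with array weights, 32, and 5 to 22 with 1 array left out. With the replicate block the first step gave 196 (fixed) or 191 (random) and the second 51 or 42, and pairing changed no other call count by over 1.5 times. The rule found 899 spots at a first threshold of 2-fold and 93 at 0.5. On the normexp and loess ratios it found 32 probes, of which 17 were in the authors' table and 14 were members. On median centred ratios it found 233 probes, of which 143 were in the authors' table and 36 were members.

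Of 1398 values of single probes under alternatives, 1259 kept their direction and side of the threshold, 101 lost the call, 8 gained one and 30 turned sign, all at the first knockout step. With Agilent's signals and the authors' values, in that order, these were Z00031900-1 at 1.69 and 1.64, Z00025028-1 at 2.00 and 1.95, Z00076114-1 at 1.22 and 1.17, Z00023035-1 at 0.84 and 0.79, Z00056756-1 at 2.11 and 2.06, Z00038211-1 at 0.54 and 0.49, Z00054847-1 at 2.14 and 2.09, Z00038456-1 at 0.83 and 0.77 and Z00073950-1 at 0.18 and 0.12. With median centring they were Z00025028-1 at 0.082, Z00023035-1 at 0.026, Z00054847-1 at 0.19 and Z00066938-1 at -0.028. With Cy3 alone they were Z00031900-1 at 0.17, Z00025028-1 at 0.30, Z00023035-1 at 0.085, Z00056756-1 at 0.25, Z00054847-1 at 0.37, Z00038456-1 at 0.021 and Z00066938-1 at -0.15. Z00054847-1 was at 0.11 with an offset of 16. The cause was not tested.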
